A study of Mus musculus with 6 samples.

Results

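Described here are 10 genes of secreted immune proteins: the CC chemokines Ccl2, Ccl7 and Ccl5, the CXC chemokines Cxcl1, Cxcl2, Cxcl5, Cxcl10, Cxcl12 and Cxcl16, and the long pentraxin Ptx3. They are 10 of the 54532 genes in the table, found by gene symbol. They were chosen by their FPKM values in the contrast of WT against p53-deficient cells, which was known when the list was drawn up. Their values are therefore given as a description, with no p-value, and support nothing about the contrast. RNA came from mouse haploid embryonic stem cells of strain 129SV, in 3 wild-type (WT) libraries and 3 p53-deficient libraries. The genotype field gives the second group as haploid without p53, the series design calls it a knockout, and its sample titles read P53ki. Whether the cells of a group were 1 line or clone, whether the libraries came from separate cultures, and whether feeder cells were used or removed are not given in the labels. The p-values below therefore reflect no more than the library-to-library spread, part or all of which may be technical. A difference between lines or cultures cannot be told apart from the effect of the genotype.

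Chemokines are small secreted proteins that bind G protein-coupled receptors and direct cell migration. The CC and CXC families are named for the spacing of their first cysteines. Ptx3 is a secreted pattern-recognition protein that binds microbes, complement and matrix components. Fibroblasts, including the embryonic fibroblasts commonly used as feeders for stem cells, secrete many of these proteins, and inflammatory cytokines acting through NF-kB and C/EBP factors induce several of them.

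Each library held 11536412 to 21218976 reads in listed genes. Trp53, the gene for p53, stood at 64.5, 69.8 and 69.6 FPKM in WT and at 9.71, 9.71 and 9.98 FPKM in p53-deficient libraries (log2 difference -2.67, SE 0.0371, limma adjusted p = 3.57e-08). FPKM is fragments per kilobase of gene, scaled to library depth. Of the 10 embryonic stem cell markers, none was at 0, and Pou5f1, a core pluripotency factor, averaged 371 FPKM in WT and 407 in the p53-deficient group. Among 26 fibroblast markers, 24 passed the filter of a mean of at least 0.5 FPKM, and limma called all 24 lower in p53-deficient cells. Over all 15144 genes tested, 31.3% were called lower. Some markers, such as Pdgfra and Twist2, passed through their WT level, with p53-deficient means of 0.262 and 0.233 FPKM. The summed level of the 26 markers was 1171 to 1192 FPKM in WT and 252 to 266 FPKM in p53-deficient libraries. None of the 26 was at 0 in every library. Reads pooled over 4 Y-linked genes, which a haploid stem cell line with an X chromosome lacks, numbered 1161 in WT and 103 in p53-deficient libraries. That was a depth-adjusted ratio of 9.84 (95% exact binomial interval 8.04 to 12.2). Intervals here cover counting error only. Whether the cell types behind these markers set the levels below was not tested.

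All 10 genes were lower in every p53-deficient library than in every WT library. Their summed level was 349 to 364 FPKM in WT and 33.0 to 36.5 FPKM in p53-deficient libraries. In bulk RNA, fewer cells of a type and less RNA per cell cannot be told apart. Over all 15144 genes tested, 33.7% were lower in p53-deficient cells with no overlap between groups. The WT mean was at least 5 times the p53-deficient mean for 8 of the 10 genes, and for 4.03% of all genes tested. It was at least 20 times for Cxcl5 and Ptx3, and for 0.541% of all genes tested. Since the 10 genes were listed from this contrast, nothing is read from these shares. All 10 passed the filter, but Cxcl2 and Cxcl12 did so through their WT level, since their p53-deficient means lay under 0.5 FPKM.

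**Figure D1:**
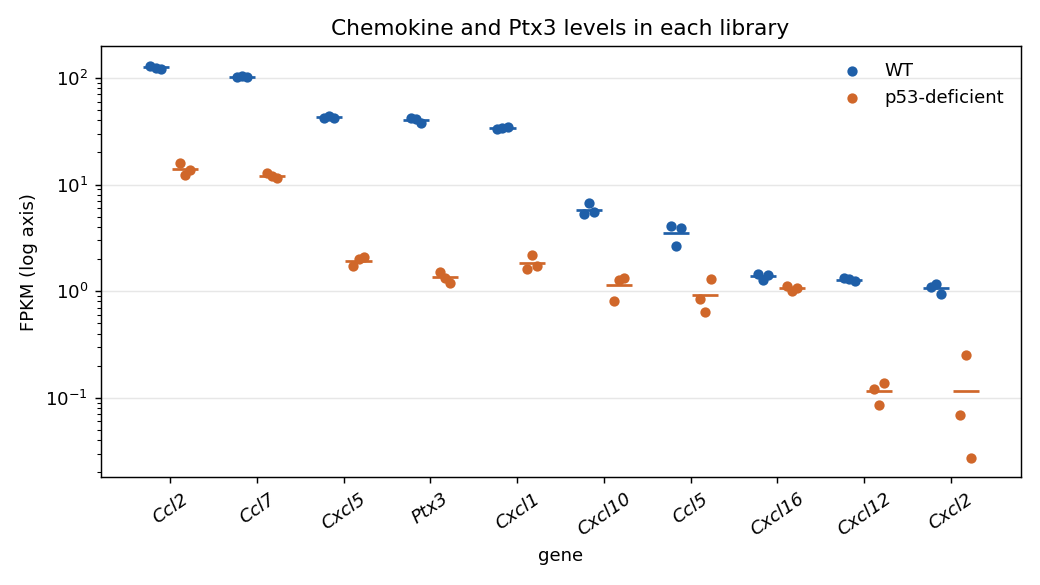
FPKM (log axis) of the 10 genes in each library, with a bar at each group mean; blue points are the 3 WT and orange points the 3 p53-deficient libraries. The WT points lie above the p53-deficient points for each gene, with the widest gap for Ptx3 (40.5 against 1.35 FPKM) and the narrowest for Cxcl16 (1.38 against 1.06 FPKM).

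Among the CC ligands, Ccl2 and its neighbour Ccl7 were the most abundant of the 10 genes in both groups. Ccl2 (monocyte chemoattractant protein 1, a Ccr2 ligand; ENSMUSG00000035385) lies at chr11:82035571-82037453 on the plus strand of mm10. It measured 131, 124 and 121 FPKM in WT and 16.0, 12.2 and 13.7 FPKM in p53-deficient libraries. The lowest WT library thus stood far above the highest p53-deficient one. The means were 125 ± 4.98 and 14.0 ± 1.87 FPKM (SD, n = 3 each), so the p53-deficient level was 11.2% of WT. Ratios of pooled reads, adjusted for depth, give the size of each difference with its counting error. For Ccl2, from 8178 and 819 reads, the ratio of WT to p53-deficient was 8.71 (8.11 to 9.37).

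Ccl7 (monocyte chemoattractant protein 3; ENSMUSG00000035373, chr11:82045712-82047525, plus strand) starts 8.26 kb after the end of Ccl2. It binds several receptors on monocytes, Ccr2 among them. Its level was 103, 104 and 101 FPKM in WT and 12.7, 12.0 and 11.4 FPKM in p53-deficient libraries. WT libraries were close to each other, and the groups did not overlap. The means were 103 ± 1.37 and 12.0 ± 0.654 FPKM, with a read ratio of 8.50 (7.74 to 9.35). The intervals of Ccl2 and Ccl7 overlapped, so their ratios were not separated by counting error. Together the pair made up 63.3% to 64.0% of the summed level of the 10 genes in WT, and 73.5% to 78.6% in p53-deficient libraries.

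Ccl5 (RANTES, a chemokine that attracts T cells and monocytes; ENSMUSG00000035042, chr11:83525778-83530518, minus strand) was much less abundant. It measured 4.10, 2.64 and 3.90 FPKM in WT and 0.842, 0.631 and 1.30 FPKM in p53-deficient libraries. WT replicate 2 was the low WT library and p53-deficient replicate 3 the high one of its group, without overlap. These levels rest on 68, 50 and 77 reads in WT and 17, 7 and 22 reads in p53-deficient libraries. The means were 3.55 ± 0.790 and 0.924 ± 0.341 FPKM, with a read ratio of 3.70 (2.67 to 5.22). The interval of Ccl5 lay below those of Ccl2 and Ccl7.

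The CXC ligands with a Glu-Leu-Arg motif before the first cysteine, Cxcl1, Cxcl2 and Cxcl5, attract neutrophils through Cxcr2 and lie in 1 gene cluster on chromosome 5. Cxcl5 (ENSMUSG00000029371, chr5:90759360-90761624, plus strand) held 42.5, 43.7 and 42.3 FPKM in WT and 1.73, 2.00 and 2.07 FPKM in p53-deficient libraries. Libraries of a group were close to each other and the groups were far apart. Its means were 42.9 ± 0.764 and 1.93 ± 0.176 FPKM, with a read ratio of 22.4 (19.3 to 26.2). Cxcl1 (KC, ENSMUSG00000029380, chr5:90891241-90893115, plus strand) measured 33.1, 34.1 and 34.3 FPKM in WT and 1.60, 2.17 and 1.72 FPKM in p53-deficient libraries. P53-deficient replicate 2 was the highest of its group and still far under WT. The means were 33.8 ± 0.640 and 1.83 ± 0.301 FPKM, with a ratio of 19.1 (16.4 to 22.4). The read ratios of Cxcl1 and Cxcl5 overlapped in their intervals, and both lay above those of Ccl2 and Ccl7.

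Cxcl2 (macrophage inflammatory protein 2, ENSMUSG00000058427, chr5:90903871-90905938, plus strand) begins 10.8 kb beyond Cxcl1 but was far less abundant. It stood at 1.09, 1.18 and 0.939 FPKM in WT and at 0.0690, 0.251 and 0.0274 FPKM in p53-deficient libraries. The groups did not overlap, and p53-deficient replicate 2 was the highest of its group. Only 3, 6 and 1 reads lay behind the p53-deficient levels, against 39, 48 and 40 reads in WT. The means were 1.07 ± 0.121 and 0.116 ± 0.119 FPKM, with a ratio of 11.1 (5.83 to 23.7). Without p53-deficient replicate 2 the ratio was 21.3, and without p53-deficient replicate 3 it was 7.99.

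Because Cxcl1, Cxcl2 and their paralog Cxcl3 lie in 1 cluster and differ widely in level, the DNA just before their starts is shown, together with Cxcl10 and Ptx3. The sequences are from RefSeq promoter windows of GRCm38.p6, the mm10 assembly, which run from 250 bases before to 50 bases after a gene's start. Windows were matched for 5 of the 10 genes, Cxcl1, Cxcl2, Cxcl10, Cxcl12 and Ptx3. Capitals mark matches to the NF-kB consensus on either strand, with overlapping matches joined. Cxcl1 is chr5:90891115-90891240, Cxcl2 is chr5:90903769-90903870 and Cxcl3 is chr5:90785971-90786100, all on the plus strand. Cxcl10 is chr5:92348890-92349069 on the minus strand, and the Ptx3 site is chr3:66219867-66219896 on the plus strand.
Cxcl1: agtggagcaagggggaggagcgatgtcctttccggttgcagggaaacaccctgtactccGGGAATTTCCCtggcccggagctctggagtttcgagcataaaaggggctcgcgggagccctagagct
Cxcl2: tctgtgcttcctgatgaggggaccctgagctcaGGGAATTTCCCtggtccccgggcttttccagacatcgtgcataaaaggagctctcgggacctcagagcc
Cxcl3: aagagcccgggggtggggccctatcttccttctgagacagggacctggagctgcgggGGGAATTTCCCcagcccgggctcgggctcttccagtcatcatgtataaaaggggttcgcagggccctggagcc
Cxcl10: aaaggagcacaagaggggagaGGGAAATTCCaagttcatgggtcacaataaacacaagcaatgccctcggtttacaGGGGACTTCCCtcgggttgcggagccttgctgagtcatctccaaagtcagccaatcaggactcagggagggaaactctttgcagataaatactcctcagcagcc
Ptx3: accccctcccccaaatccaGGGGAACTCCC

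Distances here run from the match's first base to the gene start in the deposited table, which for Cxcl1, Cxcl2, Cxcl3 and Ptx3 is not the RefSeq start. The same letters, GGGAATTTCC, stood 67 bases before the start of Cxcl1, 69 before that of Cxcl2 and 75 before that of Cxcl3. Cxcl10 had matches beginning 159 and 104 bases before its start, and Ptx3 a match beginning 24 bases before its start (1 base before the RefSeq start). The NF-kB consensus was found in the windows of 4 of the 5 genes, Cxcl12 being without one, and in 5 of 23 other chemokine windows. It was found in 8.46% of all 32851 windows. The core of an interferon response element, a pair of TTTC repeats with any 2 bases between them, was matched in Cxcl10 alone of the 5 genes, 213 bases before the start, and in 3.44% of all windows. TGANTCA, the AP-1 motif, was matched in Cxcl10 alone of the 5, 74 bases before the start, and in 7.81% of all windows. Both strands were searched for each motif, and a match describes letters, not binding. Cxcl1 and Cxcl2 carry the same NF-kB letters while their WT levels were 33.8 and 1.07 FPKM.

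The 3′ UTRs of the same pair of genes also held a shared sequence. AU-rich elements in 3′ UTRs are bound by proteins that speed up mRNA decay, and TTATTTATT is their classic core. In the longest coding transcripts of GENCODE mouse release 21, this core occurred in Cxcl1 and Cxcl2 and in none of the other 8 genes. Among 12101 tested coding genes, 7.90% had at least 1 copy and 1.77% at least 2. Cxcl1 held 2 copies in a 3′ UTR of 592 bases and Cxcl2 4 copies in 1494 bases. The sites are shown with the core in capitals, at the given base of the 3′ UTR.
Cxcl1, base 102: atttatgtatTTATTTATTccacaaagtg
Cxcl1, base 395: agaatgtcagTTATTTATTgaaagtcgtc
Cxcl2, base 882: gagagttcacTTATTTATTtatctatgta
Cxcl2, base 902: atctatgtatTTATTTATTtattaattcc
Cxcl2, base 906: atgtatttatTTATTTATTaattccattg
Cxcl2, base 1446: gtggacacatTTATTTATTcatgtatttt

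The shorter pentamer ATTTA occurred in 9 of the 10 genes, Ccl5 being without one, and in 68.1% of the tested coding genes. Its density was 11.8 per kb in Cxcl1 and 7.36 per kb in Cxcl2. The other 8 genes ranged from 0 to 4.60 per kb, against a median of 1.27 per kb over tested coding genes.

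In the chromosome 5 cluster the genes between Cxcl5 and Cxcl1 were low. Ordered along the chromosome, it holds Cxcl5, Ppbp, Pf4, Cxcl3, Cxcl15, Cxcl1 and Cxcl2, and 130 kb separate Cxcl5 from Cxcl1. Ppbp, the platelet basic protein gene, had 17 reads in WT and 1 read in p53-deficient libraries. Pf4, platelet factor 4, averaged 1.13 ± 0.576 and 0.615 ± 0.249 FPKM. Cxcl3, a neutrophil attractant, averaged 0.345 ± 0.0532 and 0.0761 ± 0.0243 FPKM, from 70 and 14 reads, a ratio of 4.36 (2.44 to 8.39). Cxcl15, the lung chemokine, had 0 reads in WT and 2 in p53-deficient libraries. In WT, Cxcl5 and Cxcl1 thus stood far above each gene between them.

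**Figure D2:**
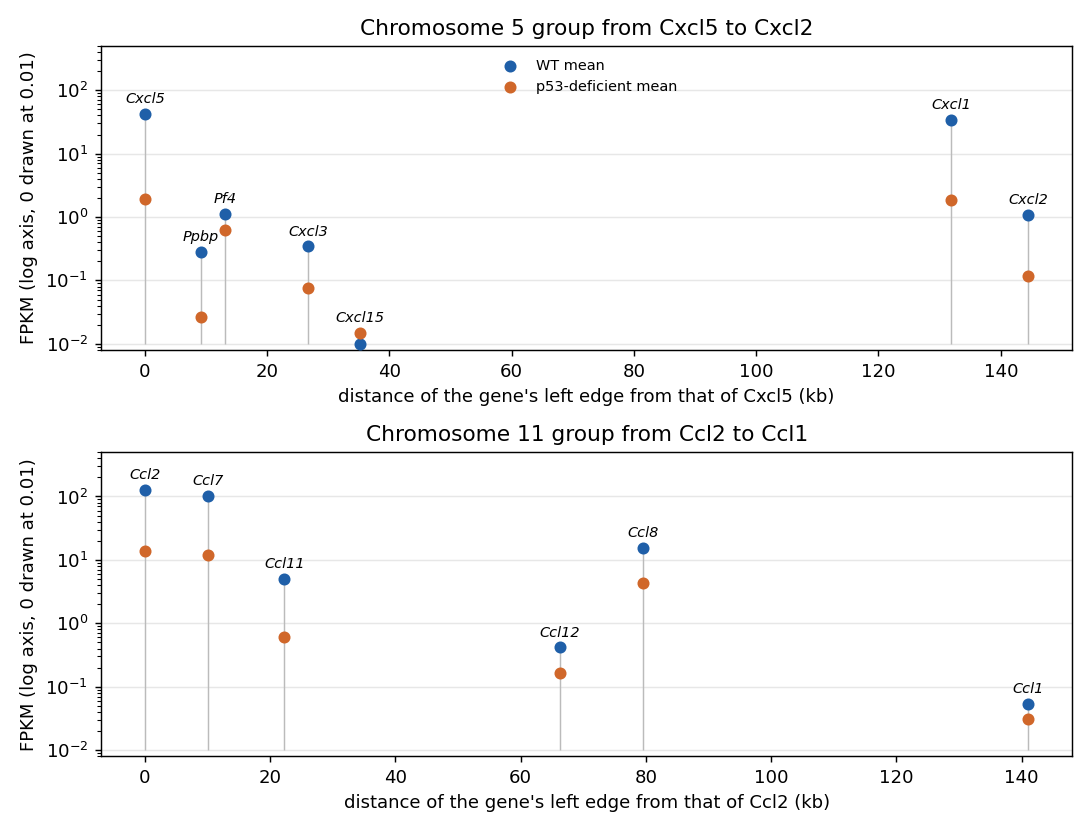
Group mean FPKM (log axis) of the annotated chemokine genes of 2 clusters, by distance of the gene's left edge from that of the first gene (kb); blue is WT and orange p53-deficient, and a mean of 0 is drawn at 0.01. On chromosome 5 the genes between Cxcl5 and Cxcl1 had WT means of at most 1.13 FPKM, while on chromosome 11 Ccl11 (5.04 FPKM) and Ccl8 (15.5 FPKM) were also present.

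In the chromosome 11 cluster the genes after Ccl2 and Ccl7 were present at lower levels. Ccl11, eotaxin, which attracts eosinophils, measured 4.87, 4.69 and 5.57 FPKM in WT and 0.439, 0.800 and 0.576 FPKM in p53-deficient libraries. Its read ratio of 8.87 (6.12 to 13.3) had an interval that overlapped those of Ccl2 and Ccl7. Ccl8, monocyte chemoattractant protein 2, measured 18.6, 13.6 and 14.4 FPKM in WT and 4.74, 4.23 and 3.77 FPKM in p53-deficient libraries. Its ratio of 3.59 (2.91 to 4.47) lay below those of Ccl2, Ccl7 and Ccl11, so members of this cluster differed unequally between groups. Ccl12 had 13 and 4 reads and Ccl1 7 and 3 reads in WT and p53-deficient libraries. Beside Ccl5, Ccl9 had 77 and 7 reads, Ccl6 19 and 3, Ccl3 27 and 12, and Ccl4 13 and 2. None of these 4 neighbours reached a mean of 1 FPKM.

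The remaining CXC genes were single or had weak neighbours. Cxcl10 (IP-10, an interferon-inducible ligand of Cxcr3; ENSMUSG00000034855, chr5:92346638-92348889, minus strand) measured 5.30, 6.67 and 5.48 FPKM in WT and 0.802, 1.27 and 1.33 FPKM in p53-deficient libraries. WT replicate 2 was the highest and p53-deficient replicate 1 the lowest library. The means were 5.81 ± 0.745 and 1.13 ± 0.290 FPKM, with a ratio of 5.32 (4.39 to 6.49). Of the other Cxcr3 ligands beside it, Cxcl9 had 175 and 47 reads, a ratio of 3.25 (2.34 to 4.58), and Cxcl11 had 11 and 5 reads. The Cxcl10 exons overlap those of Art3 on the opposite strand over 5.91% of their length, and Art3 averaged 0.0935 FPKM.

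Cxcl12 (stromal cell-derived factor 1, the ligand of Cxcr4 and Ackr3; ENSMUSG00000061353, chr6:117168535-117181367, plus strand) is a homeostatic rather than an inflammatory chemokine. It stood at 1.32, 1.29 and 1.25 FPKM in WT and at 0.122, 0.0847 and 0.139 FPKM in p53-deficient libraries. The WT libraries were close to each other, the p53-deficient ones spread more, and the groups did not overlap. The means were 1.29 ± 0.0353 and 0.115 ± 0.0277 FPKM, with a ratio of 10.8 (8.03 to 14.7) from 604 and 49 reads.

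Cxcl16 (a transmembrane chemokine and ligand of Cxcr6; ENSMUSG00000018920, chr11:70453983-70459984, minus strand) differed least. It measured 1.46, 1.26 and 1.43 FPKM in WT and 1.12, 1.00 and 1.07 FPKM in p53-deficient libraries. The groups did not overlap, but the highest p53-deficient library reached 88.7% of the lowest WT library. The means were 1.38 ± 0.107 and 1.06 ± 0.0576 FPKM, with a ratio of 1.28 (1.05 to 1.58). On the log2(FPKM + 1) scale its difference was -0.21, and -0.09 after quantile normalization. Exons of Zmynd15 on the opposite strand overlap 18.3% of its exon length, and Zmynd15 averaged 0.223 FPKM. The kit is not stated to mark strand, so reads from the overlap cannot be assigned to one of them.

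Ptx3 (ENSMUSG00000027832, chr3:66219910-66225805, plus strand) differed most. It held 42.3, 41.5 and 37.6 FPKM in WT and 1.52, 1.32 and 1.20 FPKM in p53-deficient libraries. Every p53-deficient library lay at a small fraction of every WT library. The means were 40.5 ± 2.48 and 1.35 ± 0.162 FPKM, so the p53-deficient level was 3.34% of WT. The read ratio was 29.6 (25.5 to 34.4) from 6231 and 184 reads, and its interval overlapped that of Cxcl5 and no other of the 10.

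On the log2(FPKM + 1) scale, which understates the change of low genes, the differences (p53-deficient minus WT) ran from -4.14 for Ptx3 to -0.21 for Cxcl16. Their median was -2.34, beside 0.03 over all genes tested. For Cxcl12 and Cxcl2 the differences on this scale were -1.04 and -0.89, although their read ratios had intervals that overlapped that of Ccl2. The read ratios of Cxcl1, Cxcl5 and Ptx3 had intervals above that of the pooled Y-linked reads (8.04 to 12.2). Those of Ccl5, Cxcl10 and Cxcl16 had intervals below it, and those of Ccl2, Ccl7, Cxcl2 and Cxcl12 overlapped it. The 24 fibroblast markers had read ratios from 1.98 to 12.7, with a median of 6.53. Cxcl1, Cxcl5 and Ptx3 exceeded that range, Cxcl16 fell below it and the other 6 lay within it. The 3 WT fibroblast markers of highest level were Sparc (241 FPKM, against 122 in p53-deficient cells), Col1a1 (210 against 30.9) and Lox (158 against 14.3). How much of each marker the stem cells make themselves was not measured here.

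**Figure D3:**
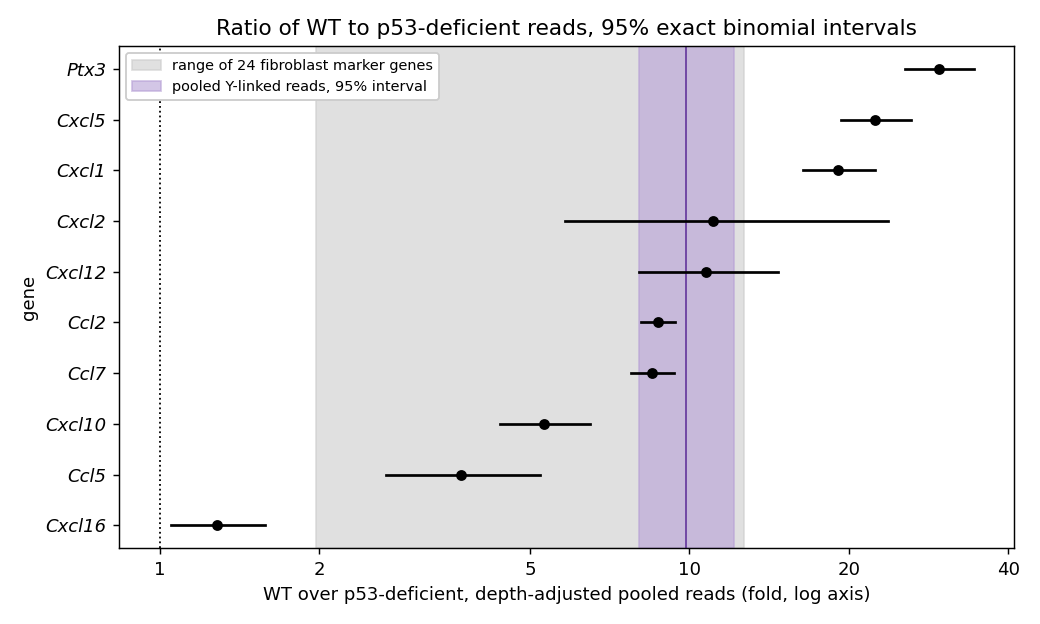
Depth-adjusted ratio of WT to p53-deficient pooled reads (log axis) for each of the 10 genes, with 95% exact binomial intervals for counting error; the dotted line is a ratio of 1. The grey band is the range of 24 fibroblast marker genes (1.98 to 12.7) and the purple band the interval of pooled Y-linked reads (8.04 to 12.2); Cxcl1, Cxcl5 and Ptx3 lie to the right of both.

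Markers of other cells also differed, though limma called 31.3% of all genes tested lower and 35.3% higher. With lists this short, nothing is read from the counts beside those shares. Limma called 2 of 3 tested macrophage markers lower (3 of 3 without WT replicate 2 or after median scaling, by Fcer1g), and their list of 12 summed to 19.3 to 19.7 FPKM in WT and 11.1 to 12.3 FPKM in p53-deficient libraries. Most of that sum was Cd68 (12.1 and 8.57 FPKM) and Lyz2 (4.48 and 1.68 FPKM), while the leukocyte marker Ptprc averaged 0.0165 and 0.0196 FPKM. Of 5 tested endothelial markers 3 were called lower and 2 higher, with list sums of 29.5 to 30.0 and 15.2 to 15.9 FPKM over 10 genes. Pecam1, which stem cells also express, made up 24.0 and 11.5 FPKM of them, and Cdh5 averaged 0.0368 and 0.0241 FPKM. Both tested primitive endoderm markers, Dab2 and Gata6, were called lower, with sums of 4.51 to 4.71 and 1.40 to 1.85 FPKM over 5 genes. Without WT replicate 2 or WT replicate 3, Gata6 fell under the filter. Without any 1 WT library Sox7, another gene of that list (0.291 and 0.656 FPKM), entered the test and was called higher. Among 10 stem cell markers, 5 were called lower, 4 higher and 1 did not pass, with sums of 3456 to 3517 and 2492 to 2564 FPKM. The higher call of Pou5f1 was lost after median scaling (limma adjusted p = 0.271). No gene of these lists was at 0 in every library, and their part in the chemokine levels was not tested.

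Within WT the order by mean FPKM was Ccl2, Ccl7, Cxcl5, Ptx3, Cxcl1, Cxcl10, Ccl5, Cxcl16, Cxcl12 and Cxcl2. Neighbours in that order were separated in all libraries except Cxcl16 and Cxcl12, whose libraries overlapped. In p53-deficient cells Ccl2 and Ccl7 overlapped each other and stood above the rest. Cxcl5 and Cxcl1 overlapped, as did each neighbouring pair among Ptx3, Cxcl10, Cxcl16 and Ccl5, and likewise Cxcl2 and Cxcl12 at the bottom. Cxcl16 moved from rank 8 in WT to rank 7 and Ptx3 from rank 4 to rank 5. The deposited lengths are the union of all annotated exons, 1875 bases for Cxcl1 against 953 in its longest coding transcript. Per base of the longest coding transcript, Cxcl1 rose from rank 5 to rank 3 in WT (66.6 FPKM), above Ptx3 (57.2) and Cxcl5 (50.7).

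None of the 10 genes had a near-identical copy among the longest coding transcripts of annotated genes, at 95% identity over at least 50% of the shorter transcript. Cxcl2 and Cxcl3 shared 91.6% identity over 320 bases, and Cxcl1 and Cxcl2 78.1% over 347 bases. Shorter stretches could be more alike, such as 97.4% over 38 bases between Cxcl12 and Ereg. Ccl2 and Ccl7 shared 72.0% identity over 257 bases.

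Genes whose profile over the 6 libraries lay nearest to the mean profile of the 10 were sought among 11002 coding genes of mean FPKM at least 1. Likeness was the Euclidean distance between log2(FPKM + 1) values centred on each gene's mean. The nearest were Col4a1, a basement membrane collagen, at a distance of 0.0867 (34.6 FPKM in WT and 6.03 in p53-deficient cells), and Inhba, an activin subunit, at 0.0947 (11.1 and 1.56 FPKM). Cyp1b1, a cytochrome P450, followed at 0.0954 (8.34 and 0.904 FPKM), Loxl1, a lysyl oxidase and fibroblast marker of the list above, at 0.0956 (14.1 and 2.01 FPKM), and Fstl1, a secreted glycoprotein, at 0.104 (68.7 and 14.0 FPKM). The 10 genes themselves lay at 0.818 (Cxcl10) to 2.54 (Cxcl16) from their mean profile.

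The genes around these ligands were counted in lists of related genes, with limma and Benjamini-Hochberg adjustment over all 15144 genes tested. Of all genes tested, 31.3% were called lower and 35.3% higher in p53-deficient cells. The filter averages over both groups, so a gene can pass through its WT level alone. In these lists Ccl20, Ccl25, Cxcl9, Tnfaip6 and Il6 did so, with p53-deficient means of 0.364, 0.483, 0.301, 0.231 and 0.188 FPKM. Counts of lower genes in their lists are therefore not free of the filter. Among 18 other CC chemokines 4 passed the filter and all 4 fell, with a median log2 difference of -1.38. They were Ccl11 (adjusted p = 7.76e-06), Ccl8 (adjusted p = 3.70e-05), Ccl20 and Ccl25. Ccl20, a Ccr6 ligand, fell from 1.95 to 0.364 FPKM. Ccl25, the thymus-expressed chemokine, fell from 0.779 to 0.483 FPKM (limma adjusted p = 0.0229). The Ccl25 call was lost after quantile normalization (0.157) and without any 1 library other than p53-deficient replicate 1 (0.0553 to 0.0708).

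Among 11 other CXC, CX3C and XC chemokines 4 were tested, of which 2 fell and 2 did not pass. Cxcl14, a chemokine of epithelia and fibroblasts, fell from 4.76 ± 0.241 to 2.16 ± 0.602 FPKM (limma adjusted p = 0.00139). Cxcl9 fell from 1.02 ± 0.224 to 0.301 ± 0.132 FPKM (limma adjusted p = 0.00305). Pf4 did not pass (limma adjusted p = 0.197), but passed without WT replicate 3 (0.0148). Cx3cl1, a membrane-bound chemokine, stood at 0.711 ± 0.144 and 0.922 ± 0.141 FPKM and did not pass (limma adjusted p = 0.164), but was called higher after quantile normalization.

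Receptors for the ligands were scarce in both groups. Of 23 chemokine receptors, 22 lay under the filter. Ackr3, the scavenging receptor of Cxcl12, was the one tested, and fell from 3.25 ± 0.254 to 0.993 ± 0.0202 FPKM (limma adjusted p = 1.12e-05). Over all 6 libraries Ccr2, Ccr3, Ccr6, Ccr8 and Ackr2 had 0 reads. Counting 3 reads as the limit that 0 allows, their pooled level could reach 0.00412 FPKM (Ccr2) to 0.0237 FPKM (Ccr8). Cxcr2, the receptor of Cxcl1, Cxcl2 and Cxcl5, had 5 reads in all, and Cxcr3, that of Cxcl10, had 6. Among receptors under the filter, Ccr4 (143) and Ackr4 (84) had the most reads, followed by Cxcr4 with 64 and Cxcr6 with 48. The receptor of the 2 most abundant ligands, Ccr2, was thus among those with no read.

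Of 6 pentraxins and Ptx3 partners 3 were tested, with 1 lower, 1 higher and 1 not passing. Tnfaip6, which crosslinks hyaluronan together with Ptx3, fell from 2.38 ± 0.137 to 0.231 ± 0.111 FPKM (limma adjusted p = 1.30e-05). Nptx2, a neuronal pentraxin, rose from 4.59 ± 0.260 to 13.9 ± 0.901 FPKM (limma adjusted p = 2.59e-06). Nptxr, the neuronal pentraxin receptor, stood at 1.99 and 1.95 FPKM and did not pass. Ptx3 and Nptx2, both pentraxin genes, therefore stood in opposite directions between the same libraries.

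Among 14 inflammatory cytokines 3 were tested and all 3 fell, with a median log2 difference of -1.91. Lif, which sustains mouse stem cells and is also a secreted fibroblast product, fell from 8.06 ± 0.227 to 0.936 ± 0.313 FPKM (limma adjusted p = 6.34e-06). Il6 measured 3.53, 3.76 and 3.08 FPKM in WT and 0.235, 0.0713 and 0.257 FPKM in p53-deficient libraries (limma adjusted p = 6.11e-06). Csf1, the macrophage growth factor, fell from 23.8 ± 0.420 to 6.65 ± 0.112 FPKM (limma adjusted p = 7.87e-08).

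Of 20 cytokine and pattern receptors and their adaptors 18 were tested, with 10 lower, 3 higher and 5 not passing. The interleukin 1 receptor Il1r1 fell from 2.67 to 0.579 FPKM, and the interferon gamma receptor chains Ifngr1 and Ifngr2 fell from 5.06 to 1.59 and from 4.67 to 1.93 FPKM. The interleukin 6 receptor Il6ra rose from 1.61 to 5.33 FPKM. Its signalling partner Il6st stood at 10.2 and 10.8 FPKM and did not pass. After quantile normalization 5 genes of this list were higher.

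All 17 NF-kB and C/EBP factors and targets were tested, with 8 lower, 5 higher and 4 not passing, and a median log2 difference of -0.03. Vcam1, an adhesion molecule, fell from 6.65 to 0.678 FPKM. The C/EBP factors Cebpb and Cebpd fell from 15.9 to 2.96 and from 5.27 to 0.964 FPKM. Nfkbiz, an NF-kB cofactor needed for some secondary response genes, fell from 7.88 to 1.64 FPKM. Rela, the main activating NF-kB subunit, stood at 9.53 and 10.5 FPKM and did not pass (limma adjusted p = 0.0715). It passed without WT replicate 1 (0.0373) or without p53-deficient replicate 2 (0.0315). Icam1 and Irf1 rose, from 26.5 to 33.2 and from 3.03 to 5.63 FPKM, and were picked for mention with their values known.

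Among 5 mRNA decay and stability factors 4 rose and 1 fell. Zfp36l1, Zfp36l2 and Zfp36, which bind AU-rich elements, rose from 17.2 to 42.5, from 16.0 to 23.6 and from 3.74 to 5.46 FPKM. Elavl1, the other gene called higher, rose from 12.9 to 15.1 FPKM (limma adjusted p = 0.000987). Zfp36l1 reached 41.3 to 44.8 FPKM in p53-deficient libraries against 16.7 to 17.8 FPKM in WT (limma adjusted p = 1.00e-06). Zc3h12a, an RNase that degrades cytokine mRNAs, fell from 5.28 to 4.34 FPKM (limma adjusted p = 0.0412). That call was lost with no filter (0.0818), after quantile normalization (0.113) and without WT replicate 1 or 3 or p53-deficient replicate 2 or 3 (0.105 to 0.117).

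Of 8 proteases that act on chemokines, 6 fell and 2 did not pass. Mmp14, a membrane-anchored matrix metalloprotease, fell from 22.5 to 3.51 FPKM. Mmp2, which truncates Ccl7 and Cxcl12, fell from 18.2 to 3.08 FPKM, and Mmp3 fell from 10.6 to 2.49 FPKM. Dpp4, a peptidase that shortens Cxcl10 and Cxcl12, fell from 5.18 to 1.22 FPKM. Adam10, which sheds Cxcl16, stood at 14.9 and 15.8 FPKM and did not pass (limma adjusted p = 0.126), but passed as higher without p53-deficient replicate 1 (0.0194). Adam17, the other that did not pass, had a log2 difference of 0.11. It passed as higher without p53-deficient replicate 2 and with voom weights on rebuilt reads.

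**Figure D4:**
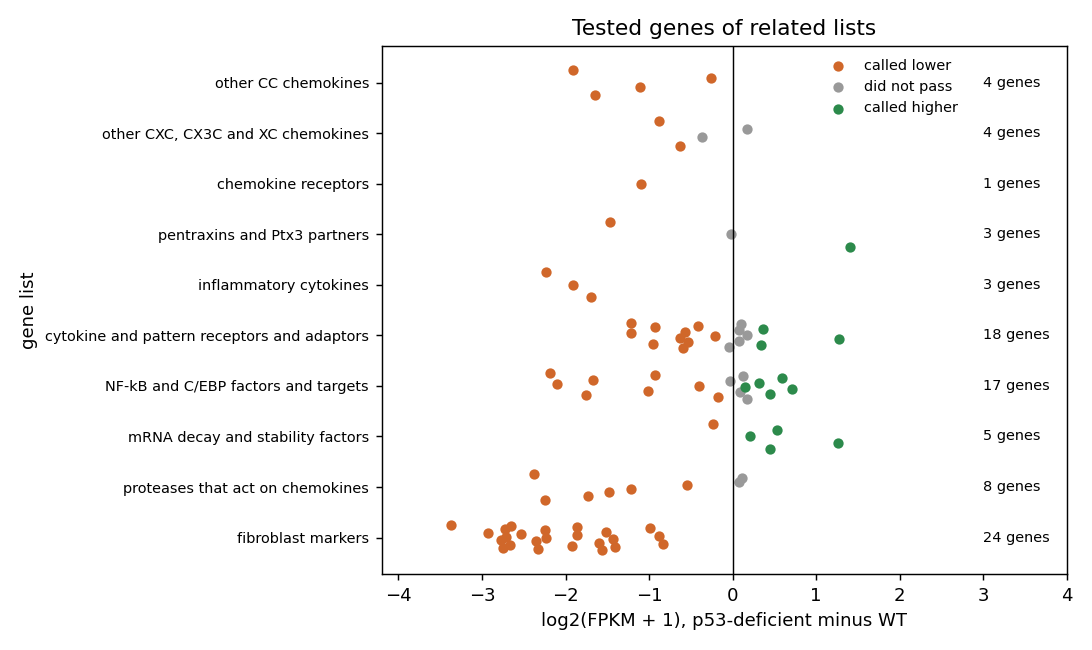
Log2(FPKM + 1) difference, p53-deficient minus WT, of each tested gene in the lists of related genes and fibroblast markers, with the number tested at the right; orange points were called lower, green higher and grey did not pass (limma, adjusted p under 0.05). All 24 fibroblast markers and all tested other CC chemokines and cytokines lie left of 0, while the NF-kB list lies on both sides.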

How the data were processed

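The deposited values are FPKM per gene and library, made by the authors. The submitters' processing notes name mm10 as build and list HISAT2 2.0.5 and featureCounts 1.5.0-p3 without their roles. The treatment of reads matching several places was not given in the sources used here. Per the labels' protocols, poly-T beads purified the mRNA and libraries were made with the NEBNext Ultra kit.

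FPKM times deposited gene length gave whole reads for 100% of values above 0 (tolerance 0.001), with a divisor of 99.1% to 101% of the reads in listed genes. Reads were rebuilt this way for ratios and intervals. For the symbols Ccl19, Ccl21a and Ccl27a, which occur more than once, the row on an assembled chromosome was used, and 27 symbols turned into dates were restored.

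Groups were taken from the labels (3 libraries each) and compared with limma 3.58.1 in R 4.3.3 on log2(FPKM + 1), variance trend, two-sided, for 15144 genes of mean FPKM at least 0.5. Calls were made at a Benjamini-Hochberg adjusted p under 0.05. An exact permutation test of 1 gene in 3 against 3 libraries cannot go below 0.1. Coordinates matched GENCODE mouse release 21 for 98.3% of 54495 shared identifiers and all 10 genes. Copies were sought with BLAST+ 2.17.0 at a minimum of 100 aligned bases. Figures used matplotlib 3.10.9 in Python 3.11.15. The fit was tested on simulated data.

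The 10 genes and the 15 other lists were chosen with earlier results of these data known. Named genes were the 10, Trp53, up to 4 called genes of largest difference and the most abundant gene not passing per list, the 3 highest genes per marker list, chemokine genes within 500 kb, and the 5 genes of nearest profile. Cell type markers at or near 0 and the genes under the filter in the closing section were picked with their values known. So were Icam1, Irf1, Elavl1, Adam17, Cx3cl1, Ccr4 and Ackr4.

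Results were recomputed with a pseudocount of 0.1, without the filter, with a stricter one (mean FPKM of at least 5), with median and quantile scaling, a replicate block, voom weights on rebuilt reads, an adjusted p under 0.01, autosomal depth for Y-linked reads, and each library left out.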

Additional observations from a re-analysis of the deposited data

How the results depend on the processing

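All 10 genes stayed lower in p53-deficient cells under every alternative in which they were fitted. Their median log2 difference of -2.34 moved to -2.89 with a pseudocount of 0.1, -3.29 with voom weights on rebuilt reads, -2.42 with median scaling and -3.63 over the 5 genes of mean FPKM at least 5. Leaving out 1 library gave -2.99 to -2.30, and without WT replicate 1 or WT replicate 2 Cxcl2 fell under the filter, which left 9 genes. The pseudocount acts most on low genes: Cxcl12 went from -1.04 to -2.69 and Cxcl2 from -0.89 to -2.57.

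With a mean FPKM of at least 5, which tests fewer genes, 2268 genes were lower in place of 4733, and the 9 lists of related genes together gave 11 lower and 7 higher in place of 36 and 13. Median scaling turned 4733 lower and 5341 higher genes into 5584 and 4296. Leaving out 1 library gave 4268 to 4635 lower genes. With the replicate number as a block, 4579 genes were lower and 5187 higher, and the lists of related genes kept counts of 36 and 13. Deviations of same-numbered libraries correlated at -0.0328, 0.0142 and 0.0056 over 15144 genes, so no shared deviation by number was seen. Whether same-numbered libraries were handled together is not given in the labels. Of 49 named list genes, 42 kept direction and call in every setting. The Y-linked ratio ranged from 9.39 to 10.4 without 1 library.

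Reads limit Cxcl2, Ccl5 and Cxcl12 in p53-deficient cells, with 10, 46 and 49 reads in all.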

Other observations

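Several inflammatory genes lay under the filter and were not tested, so their values stand as a description. Il1a, an alarmin, averaged 0.593 ± 0.0521 FPKM in WT libraries and 0.128 ± 0.0731 in the p53-deficient ones, and Il1b 0.440 ± 0.0410 and 0.0933 ± 0.0599 FPKM. Groups did not overlap for either gene. Tlr4, the receptor for bacterial lipopolysaccharide, averaged 0.720 ± 0.0393 and 0.0529 ± 0.0426 FPKM, again without overlap. Tnf averaged 0.0236 ± 0.0408 and 0.136 ± 0.0766 FPKM, and its groups overlapped. Csf3, the granulocyte growth factor, averaged 0.483 ± 0.0894 and 0.356 ± 0.134 FPKM with overlap. Tlr3, the double-stranded RNA sensor, averaged 0.532 ± 0.139 and 0.242 ± 0.0381 FPKM without overlap.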
